A study of Homo sapiens with 16 samples.

Results

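The genes described here are 38 genes of pigment production: the enzymes that make melanin, the proteins that build the melanosome and set its ion balance, the machinery that sorts cargo to it and moves it, and a few genes tied to melanocyte differentiation. They are a list of symbols chosen for their known roles, with earlier results of these data known, and all 38 were found among the 28278 gene rows of the counts. Transcripts were counted by RNA-seq in 16 libraries from SKMEL28 and A375, established human melanoma cell lines. SKMEL28 gave 1 library of unedited wild-type cells, 3 of cells labelled as MITF knockout (MITFKO), and 3 for either of 2 clones (3 and 13) of the double knockout (DKO), made by CRISPR-Cas9 editing of TFE3 in the D2 MITFKO line, so that both clones and their MITFKO controls carry the same MITF edit. A375 gave 3 wild-type libraries and 3 from cells edited for TFE3 with CRISPR-Cas9 (TFE3KO), with MITF unedited in both groups. SKMEL28 grew in RPMI and A375 in DMEM, with fresh medium given 24 hours before harvest. Replicates were separate flasks of the same clone or line, so p-values measure the spread between cultures and not between independently edited clones.

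Melanin is made inside the melanosome, an organelle related to the lysosome. Tyrosinase and its relatives oxidise tyrosine into pigment on a fibrous sheet of PMEL protein, and ion channels and exchangers set the pH and salts that tyrosinase needs. Enzymes and channels arrive in vesicles sorted by the adaptor AP-3 and the complexes BLOC-1, BLOC-2 and BLOC-3, whose loss causes forms of Hermansky-Pudlak syndrome with albinism, and filled melanosomes are tethered to actin by RAB27A, melanophilin and myosin Va. MITF, a basic helix-loop-helix factor that binds E-box sequences, is known as the main activator of these genes in pigment cells, and TFE3 is a relative that binds closely similar sequences and is best known for lysosomal genes.

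Library totals ran from 17320855 to 31269126 counts. All levels are CPM values, that is counts relative to library size after TMM scaling, and log2 fold changes, their standard errors (SE) and Benjamini-Hochberg adjusted p-values come from the quasi-likelihood test of edgeR. A gene is said to have risen or fallen only where its adjusted p was under 0.05. In the libraries labelled MITFKO, MITF mRNA stood at 480.9 to 543 CPM against 539 in wild type, so the counts do not check that label. TFE3 mRNA was at 72.4 to 79.7 CPM in MITFKO, at 8.36 to 11.8 in clone 3 and at 43.6 to 49.3 in clone 13, where it was only partly lower. Replicate 2 of clone 13 stood apart from its replicates over all genes, with a chi-square per degree of freedom of 23.5 and 24.9 against them. The other replicate pairs lay between 3.23 and 7.51. The highest of these were replicate 2 of clone 3 against replicates 1 and 3 (6.74 and 7.51), which gave 3.46 between themselves. Without the replicate 2 libraries of both DKO clones, 145 of 150 member results kept their direction and their side of the threshold, and the exceptions are given beside the genes. SOX10, S100B and PAX3, which mark the melanocyte lineage, were detected in both lines, but at lower levels in A375. SOX10 was at 691 CPM in wild-type SKMEL28 and at a mean of 503 in wild-type A375. For S100B these values were 968 and 2.84 CPM, and for PAX3 51.6 and 13.9 CPM. All 8 lineage markers listed were lower in wild-type A375, where 33.6% of all genes were lower. Summed keratinocyte, fibroblast, leukocyte and endothelial markers reached at most 80.2, 110.9, 11.7 and 12.4 CPM in any library. KRT10 was the highest keratinocyte marker in each group. The fibroblast sum, mostly LUM in SKMEL28, was 45.8 CPM in wild type and 52.2 to 62.4 in MITFKO. It was 102.9 to 110.9 in clone 3 and 76.7 to 89.4 in clone 13. The collagen markers COL1A1, COL1A2 and COL3A1 had means under 1 CPM in every SKMEL28 group. In clone 3 against MITFKO, 3 of its 5 tested markers rose and none fell, where 18.2% of all genes rose and 17.6% fell. The part of the fibroblast markers in the members' values was not tested. The lineage markers PMEL and MLANA were near 0 and TYR was at 0 in A375.

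To show the letters that MITF and TFE3 are known to bind, promoter windows of 300 bases (250 before the transcript start to 50 after it) were read from RefSeq, build GRCh38.p14, which held 69 windows for 32 of the 38 genes. The M-box core TCATGTG, on either strand, was in 8 of the 69 windows (11.6%) and in 2.92% of all 35093 promoter windows. The wider E-box CATGTG, which the M-box contains, was in 29% of the genes' windows against 11.1% of all, and the E-box CACGTG in 10.1% against 7.26%. A match of letters is a description and not a binding site. The windows of the 5 genes below are shown because their mRNA levels took different courses in the edited cells: tyrosinase (TYR, chr11:89177625-89177924, plus strand), dopachrome tautomerase (DCT, chr13:94479633-94479932, minus strand), GPR143 (chrX:9765798-9766097, minus strand), GPNMB (chr7:23246525-23246824, plus strand) and MLANA (chr9:5890639-5890938, plus strand). Each is written 5′ to 3′ on the gene's own strand, and capitals mark CATGTG or its reverse complement.
TYR: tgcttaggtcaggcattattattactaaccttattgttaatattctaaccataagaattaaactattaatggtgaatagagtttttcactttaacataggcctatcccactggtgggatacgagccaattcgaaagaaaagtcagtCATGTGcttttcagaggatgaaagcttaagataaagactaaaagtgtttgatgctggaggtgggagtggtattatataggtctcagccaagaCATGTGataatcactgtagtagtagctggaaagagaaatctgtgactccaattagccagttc
DCT: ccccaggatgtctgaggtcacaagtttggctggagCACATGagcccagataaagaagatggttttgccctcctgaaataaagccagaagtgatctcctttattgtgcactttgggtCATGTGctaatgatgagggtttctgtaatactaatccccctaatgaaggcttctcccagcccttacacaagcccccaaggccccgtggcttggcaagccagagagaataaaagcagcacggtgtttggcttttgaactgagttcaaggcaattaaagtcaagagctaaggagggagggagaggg
GPR143: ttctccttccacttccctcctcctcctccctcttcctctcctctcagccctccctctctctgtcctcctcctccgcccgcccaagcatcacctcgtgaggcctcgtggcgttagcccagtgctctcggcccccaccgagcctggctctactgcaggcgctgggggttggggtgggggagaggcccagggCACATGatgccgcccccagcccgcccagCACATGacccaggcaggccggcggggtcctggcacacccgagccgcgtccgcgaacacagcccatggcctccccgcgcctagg
GPNMB: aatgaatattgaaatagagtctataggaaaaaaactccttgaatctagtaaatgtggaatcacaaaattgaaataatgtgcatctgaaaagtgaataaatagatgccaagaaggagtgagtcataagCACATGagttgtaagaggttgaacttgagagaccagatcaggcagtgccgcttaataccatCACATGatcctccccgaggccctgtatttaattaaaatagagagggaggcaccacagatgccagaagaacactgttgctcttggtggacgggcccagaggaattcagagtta
MLANA: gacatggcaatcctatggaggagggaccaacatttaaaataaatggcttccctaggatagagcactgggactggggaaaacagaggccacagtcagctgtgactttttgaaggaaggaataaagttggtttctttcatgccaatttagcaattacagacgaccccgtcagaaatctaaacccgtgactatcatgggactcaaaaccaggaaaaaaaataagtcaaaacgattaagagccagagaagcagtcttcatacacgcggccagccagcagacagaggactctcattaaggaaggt
The E-box of TYR that lies 104 bases before the start is an M-box core and the one 12 bases before it is not. Both E-boxes in the windows shown for DCT (215 and 134 bases before the start), GPR143 (61 and 33 bases) and GPNMB (123 and 62 bases) are M-box cores. Another RefSeq window of DCT (chr13:94549357-94549656, minus strand) holds neither CATGTG nor CACGTG. The MLANA window holds neither CATGTG nor CACGTG. Of the 4 genes with an M-box core in these windows, DCT and GPR143 fell in both DKO clones and TYR and GPNMB rose in both, as described below. The windows were picked for such differing courses, so this split carries no weight. Among the other members with the core, CD63 and SLC24A5 rose in both clones, and BLOC1S3 and TYRP1 were not called in either.

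In wild-type SKMEL28 the 38 genes together took 1.99% of all counts, and 21 of them were at 100 CPM or more. Per kilobase of exon, PMEL, the protein of the melanosome fibrils, had the highest level, 3680 CPM per kb. It was followed by CD63, a tetraspanin that helps sort PMEL, at 691, by GPNMB, a melanosomal glycoprotein related to PMEL, at 310, and by MLANA, a small melanosome membrane protein, at 266. DCT stood at 157 and TYR at 103 CPM per kb. The exception among the pigment genes was TYRP1, the third enzyme of the family, with 16 counts in the wild-type library and 0.23 CPM per kb. The edited SKMEL28 libraries gave the 38 genes 0.798% to 1.03% of counts, and the A375 libraries 0.115% to 0.125%, so the groups fell into 3 ranges that did not overlap.

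**Figure D1:**
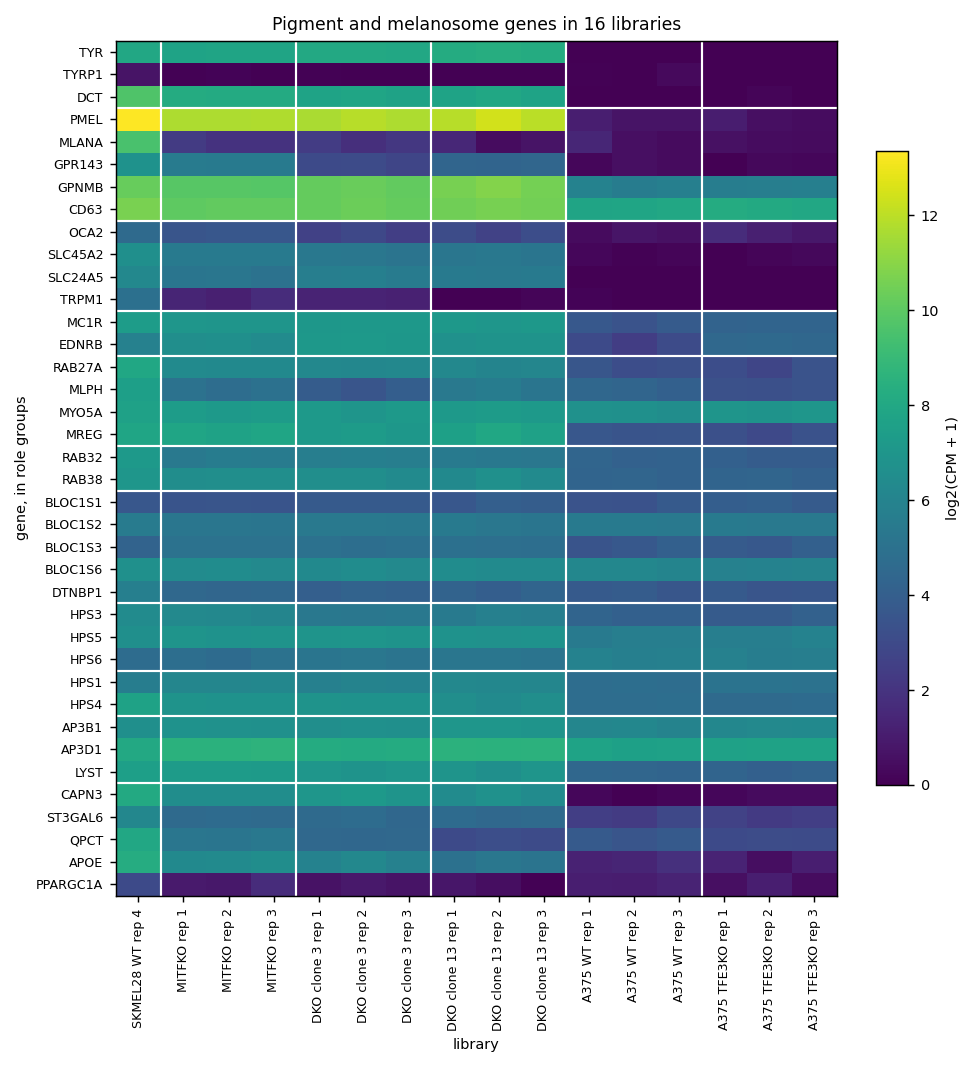
Level of each of the 38 genes (rows, grouped by role with white lines) in each of the 16 libraries (columns), as log2(CPM + 1) on the colour scale. PMEL is the brightest row in every SKMEL28 library, MLANA dims between wild type and MITFKO, and TYR, DCT and SLC24A5 are dark across A375, where TYR and SLC24A5 had no count.

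The first comparison asked how the pigment genes stood in SKMEL28 cells labelled MITFKO against wild type. Of the 38 genes, 27 fell, 5 rose and 6 were not called, where 23.4% of all 14605 genes tested fell and 25.2% rose. The median log2 fold change of the 38 genes was -0.72 against 0.01 over all genes. Among the called genes 18 differed at least 2-fold. No share of all genes was taken at that cut, so this count is a description only. The spread was wide: MLANA lost nearly all of its transcripts while TYR kept most of its own. Bulk RNA cannot tell fewer expressing cells from less RNA per cell. The wild type had 1 library, which carries another input number (3) in its file header than the MITFKO libraries (38), so the condition and anything particular to that library cannot be told apart.

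Among the melanin enzymes, TYR, which starts melanin synthesis, was at 255.5 CPM in wild type and at 217, 219.6 and 219 CPM in the MITFKO libraries. All 3 MITFKO values lay below wild type, but close to it, and TYR fell by only 0.23 on the log2 scale (SE 0.0767, adjusted p = 0.0183). DCT, which converts dopachrome on the way to eumelanin, was at 812 CPM in wild type and at 295, 286 and 285 in MITFKO. It fell by 1.49 (SE 0.0831, adjusted p = 1.82e-12), 2.81-fold lower. TYRP1 had 16 counts in the wild-type library and 3 over all MITFKO libraries, a ratio of 13.1 with a 95% counting interval of 3.75 to 70.2, and its call (adjusted p = 0.0448) was lost when any 1 MITFKO library was left out (adjusted p from 0.0636 to 0.125) and without the low-count filter (0.151).

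All 5 matrix and membrane genes fell. MLANA was at 739 CPM in wild type and at 3.95, 2.84 and 2.86 CPM in MITFKO. No other member fell as far: its log2 fold change was -7.83 ± 0.254 SE (adjusted p = 1.19e-08), 228-fold lower. PMEL was at 10440 CPM in wild type and at 3303, 3323 and 3487 in MITFKO, a log2 fold change of -1.63 ± 0.172 (adjusted p = 4.44e-05). It thus lost more CPM than any other member and still kept the highest level per kilobase. GPR143, the melanosomal receptor mutated in ocular albinism, went from 112 CPM to 45.9, 44.4 and 43.4 (-1.33 ± 0.111, adjusted p = 1.4e-09). GPNMB fell by 0.41 and CD63 by 0.55 on the log2 scale, both within 1.5-fold of wild type (adjusted p = 0.00103 and 6.03e-06).

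The 4 genes of melanosome ion transport fell as well. TRPM1, a cation channel of melanocytes and retinal bipolar cells, was at 29.1 CPM in wild type and at 1.62, 1.24 and 2.2 in MITFKO, a log2 fold change of -4.10 ± 0.314 (adjusted p = 3.36e-10). It was the second largest fall among the members with more than 3 counts in each group. OCA2, an anion channel that sets melanosome pH, fell by 1.09 (SE 0.212, adjusted p = 0.00017). SLC45A2, a melanosomal transporter, fell by 1.21 (SE 0.106, adjusted p = 2.9e-09), and the exchanger SLC24A5 by 1.10 (SE 0.111, adjusted p = 2.92e-08). SLC24A5 shares 29.4% of its exon bases with MYEF2 on the opposite strand, and the strand setting of the counting is not given in the sources used here, so its values are uncertain.

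The receptors went opposite ways. EDNRB, the endothelin receptor of the melanoblast lineage, was at 57.5 CPM in wild type and at 96.9, 99.4 and 85.1 CPM in MITFKO. All 3 MITFKO libraries lay above wild type, and EDNRB rose by 0.70 on the log2 scale (SE 0.103, adjusted p = 5.96e-06). MC1R, the melanocortin receptor that turns on pigment synthesis, went from 165 CPM to 129, 123 and 126 (-0.39 ± 0.078, adjusted p = 0.000231).

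Melanosome transport was uneven. RAB27A, the small GTPase on the melanosome surface, was at 247 CPM in wild type and at 84.1, 81.1 and 79.4 in MITFKO (-1.60 ± 0.0811, adjusted p = 3.48e-13). Melanophilin (MLPH), the linker that RAB27A recruits, went from 186 CPM to 31.6, 26.4 and 30.02, a deeper fall of 2.66 (SE 0.138, adjusted p = 8.49e-12). The motor MYO5A fell by only 0.36 (SE 0.0939, adjusted p = 0.00308), and MREG (melanoregulin), which takes part in transport back to the cell centre, was at 227 CPM in wild type and 207 to 227 in MITFKO and was not called. Of the called genes RAB27A, MLPH and MYO5A, the linker had the largest fall and the motor the smallest. RAB32 and RAB38, related GTPases that deliver enzymes to the melanosome, fell by 1.69 (SE 0.0997, adjusted p = 4.51e-12) and 0.43 (SE 0.109, adjusted p = 0.00259).

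The sorting complexes, which also serve lysosomes and platelet granules, had log2 fold changes between -1.33 and 0.79. Of the 13 genes of BLOC-1, BLOC-2, BLOC-3, AP-3 and LYST, 4 fell, 4 rose and 5 were not called. Of all genes tested, 23.4% fell and 25.2% rose, so both counts are near the background share. DTNBP1, the dysbindin subunit of BLOC-1, fell the most, from 52.7 CPM to 21.8, 20.2 and 20.8 (-1.33 ± 0.139, adjusted p = 4.57e-08). HPS4, a subunit of the exchange factor BLOC-3, fell by 0.89 (SE 0.0848, adjusted p = 1.08e-08), while its partner HPS1 rose by 0.49 (SE 0.102, adjusted p = 0.000339). BLOC1S3 rose by 0.79 (SE 0.134, adjusted p = 3.37e-05) and AP3D1, the delta subunit of AP-3, by 0.54 (SE 0.0764, adjusted p = 3.44e-06). Subunits of one complex thus moved in opposite directions in BLOC-1 and in BLOC-3. Calls for BLOC1S2 (-0.32), BLOC1S6 (-0.27) and HPS5 (0.23) were small, and each was lost without 1 MITFKO library: the first pair without replicate 3 (both adjusted p = 0.0754) and HPS5 without replicate 1 (adjusted p = 0.076) or without the low-count filter (0.0628).

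Some of these genes sit on chromosomes whose genes shifted as a whole in this comparison. The median log2 fold change was -0.38 over the 637 genes tested on chromosome 6, which carries DTNBP1 and RAB32, and 0.29 over the 968 genes on chromosome 19, which carries AP3D1, BLOC1S3 and APOE. HPS4 fell on chromosome 22, whose median was 0.21. The part of such shifts in the single-gene values was not tested.

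All 5 differentiation-linked genes fell. QPCT, a glutaminyl cyclase that closes the ends of peptide hormones, was at 254 CPM in wild type and at 37.0, 35.9 and 39.5 in MITFKO (-2.76 ± 0.0964, adjusted p = 7.07e-16). APOE, an apolipoprotein that also takes part in forming PMEL fibrils, went from 303 CPM to 78.8, 81.7 and 92.1 (-1.85 ± 0.119, adjusted p = 6.31e-10). CAPN3, a calpain protease with melanocyte-specific transcripts, fell by 1.59 and the sialyltransferase ST3GAL6 by 1.62 (adjusted p = 5.45e-10 and 2.2e-10). PPARGC1A, a coactivator of mitochondrial genes, fell by 2.38 (SE 0.584, adjusted p = 0.00183) at low levels, from 7.01 CPM to 0.953, 0.827 and 2.25.

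**Figure D2:**
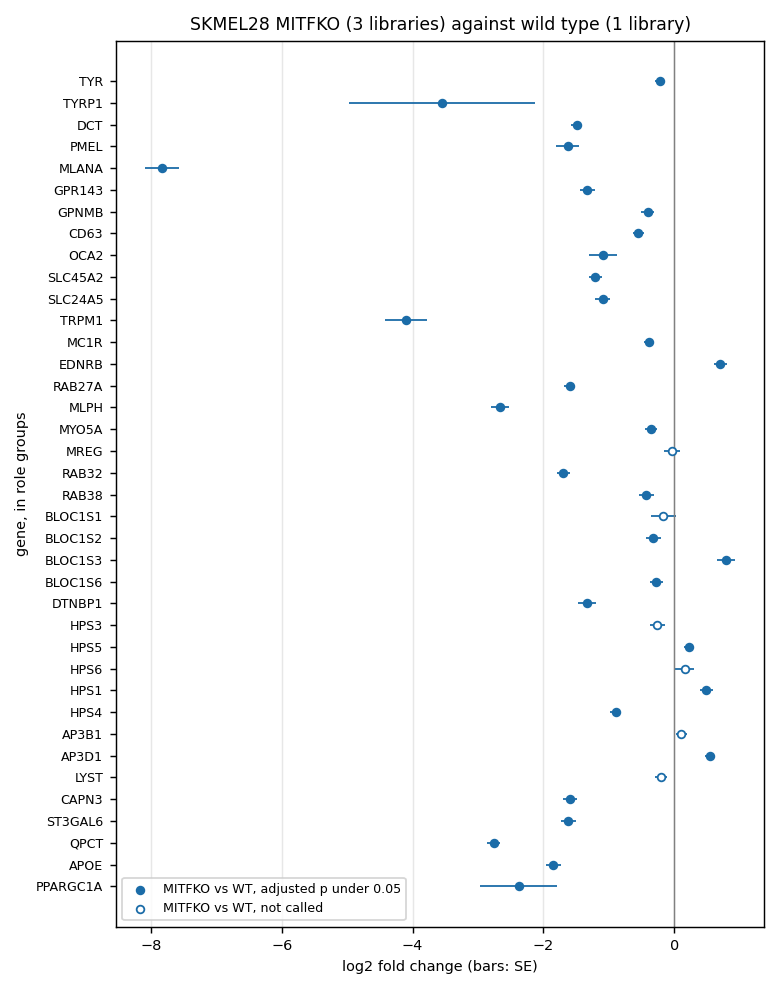
Log2 fold change of each of the 38 genes in MITFKO (3 libraries) against the lone SKMEL28 wild-type library, with SE bars. Filled points are called at an adjusted p under 0.05. MLANA lies farthest left at -7.83, TRPM1 stands at -4.10, and EDNRB and BLOC1S3 lie farthest right at 0.70 and 0.79.

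The DKO clones ask what further editing of TFE3 did to the pigment genes in the MITFKO background. In clone 3, 13 of the 38 genes fell and 7 rose, where 17.6% of all genes fell and 18.2% rose. In clone 13, 12 fell and 10 rose, where 20.2% of all genes fell and 20.5% rose. Rises in clone 3 (18.4% of the 38 genes) were thus at the background share. The median log2 fold change of the 38 genes was -0.12 in clone 3 and -0.06 in clone 13, against -0.01 and -0.02 over all genes. The clones share 3 MITFKO libraries as controls, so their values are set side by side and not counted as independent. The count of 10 rises in clone 13 dropped to 6 without MITFKO replicate 3.

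Among the melanin enzymes, TYR was at 264, 269 and 252 CPM in clone 3 and at 292, 322 and 299 CPM in clone 13, against 217 to 219.6 in MITFKO. No DKO library overlapped MITFKO, and the log2 fold change was 0.26 ± 0.0552 in clone 3 (adjusted p = 0.000761) and 0.48 ± 0.0551 in clone 13 (adjusted p = 4.16e-07). DCT went the other way, with 217, 233 and 205 CPM in clone 3 and 217, 250.5 and 215 in clone 13 against 285 to 295 in MITFKO. It fell by 0.40 (SE 0.064, adjusted p = 3.62e-05) and 0.34 (SE 0.0639, adjusted p = 0.000161). TYRP1 had 3 counts in MITFKO, 1 in clone 3 and none in clone 13; no fold is given where both groups are at or under the floor of 3 counts.

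Within the matrix and membrane group, GPR143 fell in both clones. It was at 7.03, 7.18 and 5.85 CPM in clone 3, at 19.4, 18.4 and 20.03 in clone 13 and at 43.4 to 45.9 in MITFKO. The 3 groups did not overlap, and its log2 fold change was -2.73 ± 0.104 in clone 3 (adjusted p = 2.71e-14) and -1.21 ± 0.0911 in clone 13 (adjusted p = 8.76e-10). GPNMB, a known target of TFE3 and its relatives, rose: it was at 914 to 937 CPM in MITFKO, at 1144 to 1244 in clone 3 and at 1522 to 1902 in clone 13. Its log2 fold change was 0.36 ± 0.0681 in clone 3 (adjusted p = 0.000268) and 0.85 ± 0.0684 in clone 13 (adjusted p = 3.58e-09). CD63 rose by 0.18 in clone 3, a call lost without MITFKO replicate 1 or 2 or clone 3 replicate 2 (adjusted p from 0.0557 to 0.145), and by 0.42 in clone 13 (adjusted p = 6.73e-06).

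PMEL was at 3167, 3916 and 3312 CPM in clone 3, which overlapped MITFKO (0.04 ± 0.131, adjusted p = 0.847; -0.06 without clone 3 replicate 2). In clone 13 it was at 3921, 5458 and 3996 CPM, all above MITFKO (0.40 ± 0.131, adjusted p = 0.0365). That rise was lost when any 1 MITFKO library was left out (adjusted p from 0.061 to 0.0944) and without the low-count filter (0.0768). MLANA, already low, was at 4.15, 2.51 and 3.48 CPM in clone 3 (0.06 ± 0.332, adjusted p = 0.911) and at 1.79, 0.348 and 0.635 in clone 13, below every MITFKO library (-1.86 ± 0.432, adjusted p = 0.00799).

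Among the ion transporters, TRPM1 was at 1.56, 1.54 and 1.36 CPM in clone 3, within the range of MITFKO, and was not called there. In clone 13 it had 3 counts, all in replicate 3, against 101 over the MITFKO libraries, a ratio of 32.5 with a 95% counting interval of 10.8 to 160.3 (adjusted p = 5.05e-07). OCA2 fell in both clones, from 10.7 to 11.4 CPM to 5.07, 6.55 and 4.61 in clone 3 (-1.04 ± 0.177, adjusted p = 8.43e-05) and 7.64, 5.22 and 7.86 in clone 13 (-0.69 ± 0.172, adjusted p = 0.00252). SLC24A5 rose by 0.55 in clone 3 (SE 0.0853, adjusted p = 2.98e-05) and by 0.29 in clone 13 (SE 0.0855, adjusted p = 0.00822). The rise in clone 13 was lost without MITFKO replicate 3 (adjusted p = 0.0628). SLC45A2 was not called in either clone (-0.19 in clone 3 and -0.20 in clone 13).

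EDNRB, which had risen in MITFKO, rose again: it was at 140.0, 151 and 131 CPM in clone 3 (0.59 ± 0.0696, adjusted p = 9.44e-07) and at 105, 114 and 115 in clone 13 (0.25 ± 0.0696, adjusted p = 0.00671). No DKO library overlapped the MITFKO range of 85.1 to 99.4 CPM. The rise in clone 13 was lost without MITFKO replicate 3 (adjusted p = 0.0613). MC1R was not called in either clone.

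Melanophilin went in opposite directions. MLPH was at 13.7, 10.6 and 14.9 CPM in clone 3 and at 41.2, 47.4 and 35.8 in clone 13, with the MITFKO libraries (26.4 to 31.6 CPM) between them and no overlap. It fell by 1.17 in clone 3 (SE 0.125, adjusted p = 7.55e-07) and rose by 0.50 in clone 13 (SE 0.114, adjusted p = 0.00153). MREG fell in clone 3 (-0.59 ± 0.0886, adjusted p = 8.55e-05) and was not called in clone 13, and the direct test between the clones was passed (0.53, adjusted p = 0.000332). RAB27A fell by 0.25 in clone 13 (adjusted p = 0.00274). MYO5A fell by 0.18 in clone 3 (adjusted p = 0.0421), a call that DESeq2 (0.0642), the fit without the replicate 2 libraries of both clones (0.0796) and leaving out MITFKO replicate 1 or 3 or clone 3 replicate 2 or 3 (from 0.082 to 0.24) did not keep.

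Among the sorting genes, HPS3, a BLOC-2 subunit, showed the largest change in both clones. It was at 38.9, 38.5 and 39.7 CPM in clone 3 and at 44.1, 54.9 and 50.6 in clone 13 against 67.4 to 75.8 in MITFKO (-0.88 ± 0.083, adjusted p = 3.4e-08, and -0.53 ± 0.0813, adjusted p = 1.74e-05). HPS3 shares 26.4% of its exon bases with CP on the opposite strand and is uncertain for that reason. LYST, the protein lost in Chediak-Higashi syndrome, fell by 0.33 and 0.48 (adjusted p = 0.00081 and 1.06e-05). HPS6 rose by 0.37 in clone 3 and 0.36 in clone 13 (adjusted p = 0.00583 and 0.00677), and both calls were lost without MITFKO replicate 2 (adjusted p = 0.0592 and 0.0631). In clone 3, AP3D1 fell by 0.38, HPS1 by 0.25 and DTNBP1 by 0.31 (adjusted p = 7.86e-06, 0.00745 and 0.0336), and the DTNBP1 call was lost in 5 of the fits that left out 1 library: each MITFKO library and clone 3 replicates 1 and 3 (adjusted p from 0.0558 to 0.131). In clone 13, HPS4 fell by 0.30 and AP3B1 rose by 0.23 (adjusted p = 0.000747 and 0.00392). BLOC1S1 rose by 0.41 there (adjusted p = 0.0211). Its call was lost without the replicate 2 libraries of both clones (0.0808) and without MITFKO replicate 1 or 3 or clone 13 replicate 2 or 3 (from 0.0542 to 0.0886), and 29.8% of its exon bases are shared with the readthrough gene BLOC1S1-RDH5.

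QPCT fell in both clones, and the direct test below separated them. It was at 35.9 to 39.5 CPM in MITFKO, at 21.8, 20.9 and 21.5 in clone 3 and at 7.12, 8.16 and 7.18 in clone 13, with no overlap between any of the groups. Its log2 fold change was -0.81 ± 0.0833 in clone 3 (adjusted p = 1.41e-07) and -2.32 ± 0.0928 in clone 13 (adjusted p = 2.98e-14). APOE took the same order, with 78.8 to 92.1 CPM in MITFKO, 57.6 to 73.5 in clone 3 and 30.9 to 38.2 in clone 13 (-0.41 ± 0.0952, adjusted p = 0.00256, and -1.29 ± 0.0985, adjusted p = 1.56e-08). QPCT and APOE thus fell further in clone 13, whereas GPR143 and HPS3 fell further in clone 3. How such differences relate to the TFE3 mRNA of the clones was not tested. CAPN3 rose by 0.51 in clone 3 (adjusted p = 9.63e-05). PPARGC1A fell by 1.77 in clone 13 (adjusted p = 0.0179), from a MITFKO mean of 1.34 CPM to 0.4, a call lost without MITFKO replicate 3 (0.163) or clone 13 replicate 3 (0.0757). The 514 genes tested on chromosome 4, which carries PPARGC1A, had a median of -0.38 in clone 13.

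**Figure D3:**
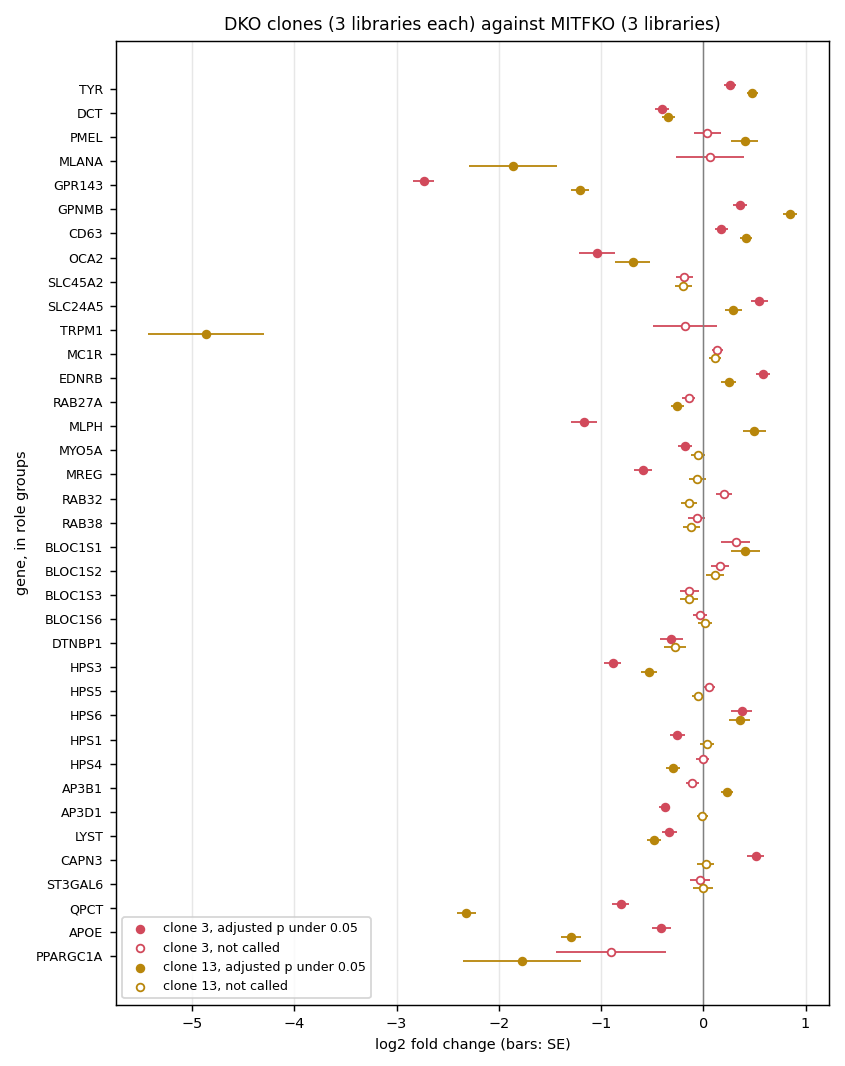
Log2 fold change of 37 of the 38 genes in DKO clone 3 and DKO clone 13 (3 libraries each) against the shared 3 MITFKO libraries, with SE bars. TYRP1, with 3 counts or fewer in each group, is left out. Filled points are called at an adjusted p under 0.05. GPR143 lies at -2.73 and -1.21, while TRPM1, MLANA and QPCT lie far to the left for clone 13 and MLPH lies on opposite sides of 0.

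The clones were also tested against each other. Of the 38 genes, 10 were higher and 9 lower in clone 13, where 14.3% of all genes were called higher and 13.4% lower. MLPH differed by 1.67 on the log2 scale (SE 0.123, adjusted p = 1.06e-08) and GPR143 by 1.53 (SE 0.107, adjusted p = 7.2e-10), both higher in clone 13. TRPM1 was lower in clone 13 by a ratio of 28.6 with a 95% counting interval of 9.44 to 142, MLANA by a log2 value of -1.93 ± 0.438 (adjusted p = 0.0115) and QPCT by -1.51 ± 0.0964 (adjusted p = 1.72e-10). TYR was higher in clone 13 by 0.22 (SE 0.055, adjusted p = 0.00461), and DCT did not pass the test (0.06 ± 0.0641, adjusted p = 0.529). GPNMB was higher by 0.49 and APOE lower by 0.88 in clone 13 (adjusted p = 1.55e-05 and 4.25e-06). PMEL missed the threshold (0.36 ± 0.131, adjusted p = 0.073), but passed it without the replicate 2 libraries of both clones (0.29, adjusted p = 4.65e-09). The lower SLC24A5 in clone 13 (-0.25, adjusted p = 0.0286) did not pass without them (adjusted p = 0.127) or without clone 3 replicate 1 or 2 or clone 13 replicate 1 or 3 (from 0.0536 to 0.112).

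Set against the wild-type library, the mean of both DKO clones had 27 of the 38 genes lower and 6 higher, where 26.4% of all genes were lower and 26.5% higher, with a median of -0.82 against -0.01. The mean of TYR was not called against wild type (0.14 ± 0.0733, adjusted p = 0.104), but the clones lay differently: clone 3, at 252 to 269 CPM, was on both sides of the 255.5 CPM of wild type, and clone 13, at 292 to 322 CPM, was above it. GPNMB was not called for the mean either, with clone 3 (1144 to 1244 CPM) on both sides of the 1230.0 CPM of wild type and clone 13 (1522 to 1902 CPM) above it. DCT (-1.86 ± 0.0727, adjusted p = 2.74e-15) and PMEL (-1.41 ± 0.155, adjusted p = 5.24e-05) remained lower. TYRP1, with 1 count over the 6 DKO libraries, was lower by a ratio of 72 with a 95% counting interval of 11.2 to 3019. MLANA (-8.73 ± 0.21, adjusted p = 1.14e-09), QPCT (-4.32 ± 0.083, adjusted p = 1.96e-20), GPR143 (-3.30 ± 0.0972, adjusted p = 1.9e-17) and MLPH (-2.99 ± 0.119, adjusted p = 1.07e-13) stayed far below it. MLPH and QPCT lie on chromosome 2, whose 966 tested genes had a median of -0.34 in this comparison. EDNRB was 2.18-fold higher (adjusted p = 3.54e-09).

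**Figure D4:**
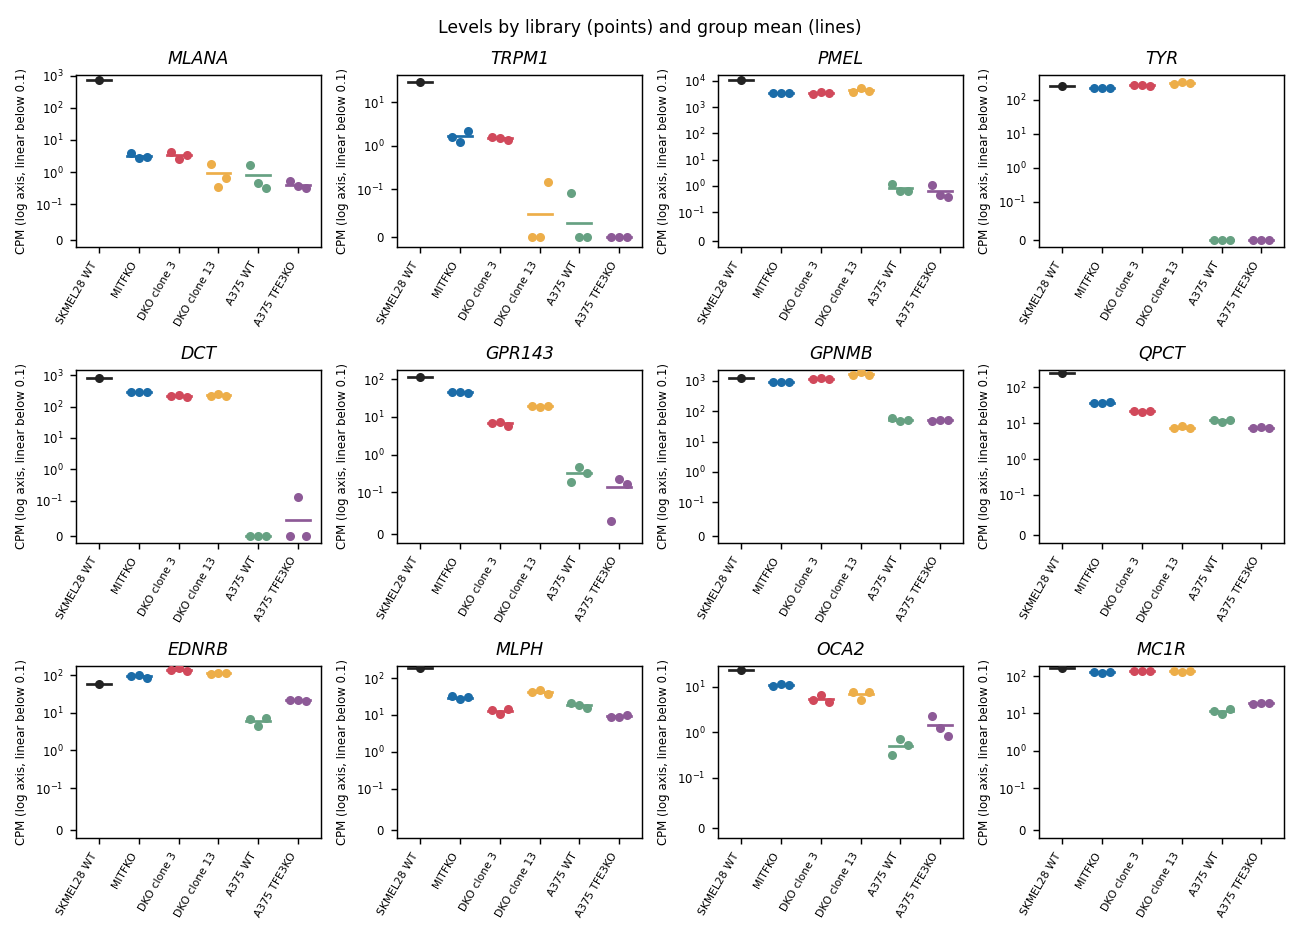
Level (CPM, log axis that is linear below 0.1) of 12 genes in each library (points) of the 6 groups, with the group mean as a line. MLANA drops from 739 CPM in wild type to under 5 in every other library, TYR stays above 200 in every SKMEL28 library and is at 0 in A375, and EDNRB is higher in every A375 TFE3KO library than in A375 wild type.

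A375 had little of the pigment program to begin with. Against wild-type SKMEL28, 34 of the 38 genes were lower in wild-type A375 and 1 was higher, where 33.6% of all 16248 genes tested were lower and 34.1% higher, and the median was -3.20 against 0.04. Of these, 30 called genes differed at least 2-fold, a count with no share of all genes taken at that cut. Cell line, medium and the lone SKMEL28 wild-type library differ together and cannot be told apart. TYR and SLC24A5 had no count in any of the 6 A375 libraries, whose floor of 3 counts allows up to 0.0217 CPM. Against the same floor over the wild-type A375 libraries, TYR was at least 5523-fold, DCT at least 17540-fold and SLC24A5 at least 1613-fold lower than in SKMEL28. The floor covers counting error only. DCT had no count in wild-type A375 and 3 counts in 1 TFE3KO library. TRPM1 had 2 counts in wild-type A375 (a ratio of 943 with a 95% counting interval of 260.1 to 7802) and none in TFE3KO.

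PMEL, the most abundant member in SKMEL28, was at 1.19, 0.649 and 0.654 CPM in wild-type A375 (-13.60 ± 0.28, adjusted p = 1.02e-12), and CAPN3 at 0.183, 0 and 0.14 (-11.24 ± 0.206, adjusted p = 1.06e-24). MLANA was at 1.69, 0.464 and 0.327 CPM, below every MITFKO library (-9.78 ± 0.337 against wild-type SKMEL28, adjusted p = 4.86e-11). TYRP1 was near absent in both lines, with 7 counts in wild-type A375 and none in TFE3KO. It was not called between the lines (-2.54 ± 1.34, adjusted p = 0.097), but 6 of the 7 counts came from wild-type replicate 3, without which it was called (-4.51, adjusted p = 0.0273). Only 1 count was then left in wild-type A375, so no fold is given between the A375 groups. In all, 8 genes were under 1 CPM in every A375 library: TYR, TYRP1, DCT, GPR143, SLC45A2, SLC24A5, TRPM1 and CAPN3.

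The sorting genes remained detected in A375, but 10 of the 13 were lower than in SKMEL28, where 33.6% of all genes were lower. HPS3 was 5.08-fold, DTNBP1 4.24-fold, HPS5 2.01-fold and HPS1 1.87-fold lower, and HPS4 and LYST were lower by 2.97 and 3.19 on the log2 scale. BLOC1S2 was at 44.3, 42.8 and 41.4 CPM in wild-type A375 against 45.6 in SKMEL28, and AP3D1 at 215, 194 and 201 against 261 (-0.36 ± 0.0664, adjusted p = 2.02e-05). HPS6 was the only one of the 38 genes that was higher, at 60.2, 52.8 and 56.3 CPM against 25.02 (1.17 ± 0.135, adjusted p = 4.9e-09). BLOC1S3, BLOC1S6 and AP3B1 were lower by less than 1.5-fold. MYO5A was 2.01-fold lower, whereas its melanosome partners RAB27A and MLPH were 26.9-fold and 9.97-fold lower. Among the other called genes, APOE was 160.7-fold, OCA2 46.2-fold, GPNMB 23.1-fold, MREG and QPCT both 21.3-fold, MC1R 14.2-fold, EDNRB 9.23-fold, RAB32 8.24-fold, RAB38 6.91-fold and CD63 6.75-fold lower. Over the 1056 genes tested on chromosome 2, which carries MLPH, MREG and QPCT, the median log2 fold change was -0.81, and its part in their values was not tested.

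The last comparison asked what TFE3 editing did to these genes in A375, where MITF mRNA was low (30.9 to 38.9 CPM in wild type and 17.1 to 18.6 in TFE3KO). The filter on low counts left 30 of the 38 genes to test, without the 8 just named. Of these 30, 8 rose and 5 fell, where 21.3% of all 14012 genes tested rose and 22% fell. The median was -0.10 against 0.00 over all genes. The count of 5 falls was 3 with DESeq2 and 3 without wild-type replicate 1.

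EDNRB rose the most. It was at 7.04, 4.45 and 7.19 CPM in wild-type A375 and at 21.7, 22.3 and 21.2 in TFE3KO. The groups did not overlap, and its log2 fold change was 1.81 ± 0.13 (adjusted p = 4.59e-17), 3.49-fold higher. The 253 genes tested on chromosome 13, which carries EDNRB, had a median of 0.31 in the same comparison, and its part in the rise of EDNRB was not tested. MC1R also rose, from 11.7, 9.83 and 13.2 CPM to 18.2, 18.8 and 18.5 (0.68 ± 0.113, adjusted p = 1.86e-06), so both receptors rose, at levels still below those of SKMEL28. OCA2 went from 0.32, 0.696 and 0.514 CPM to 2.27, 1.25 and 0.815, without overlap but at very low levels (1.54 ± 0.469, adjusted p = 0.00609), and its call was lost without TFE3KO replicate 1 (adjusted p = 0.168).

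MLPH fell from 20.9, 19.2 and 15.9 CPM to 9.08, 8.66 and 9.73 (-1.03 ± 0.119, adjusted p = 3.02e-10), while MYO5A, the motor it binds, rose by 0.30 (SE 0.0515, adjusted p = 4.9e-06). QPCT fell from 12.7, 10.5 and 12.6 CPM to 7.12, 7.59 and 7.17 (-0.71 ± 0.136, adjusted p = 2.3e-05). Neither gene had overlapping groups. CD63, BLOC1S1 and HPS1 rose by 0.23, 0.48 and 0.27 (adjusted p = 0.000519, 0.00114 and 0.00316), and BLOC1S6 fell by 0.22 (adjusted p = 0.00212). AP3B1 rose by 0.18 (adjusted p = 0.0101), a call lost without wild-type replicate 3 (0.136).

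MREG fell by 0.37 (adjusted p = 0.0278), and lost its call with DESeq2 (0.0729) and without wild-type replicate 1 or TFE3KO replicate 2 (0.112 and 0.186). RAB32 fell by 0.28 (adjusted p = 0.0304), and lost its call with DESeq2 (0.0714) and without wild-type replicate 1 or TFE3KO replicate 2 or 3 (from 0.0935 to 0.178). PMEL (-0.29 ± 0.495, adjusted p = 0.676) and MLANA (-0.99 ± 0.564, adjusted p = 0.155) were not called at their low levels. GPNMB, at 48.3 to 58.9 CPM in wild type and 48.8 to 53.3 in TFE3KO, was not called either.

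**Figure D5:**
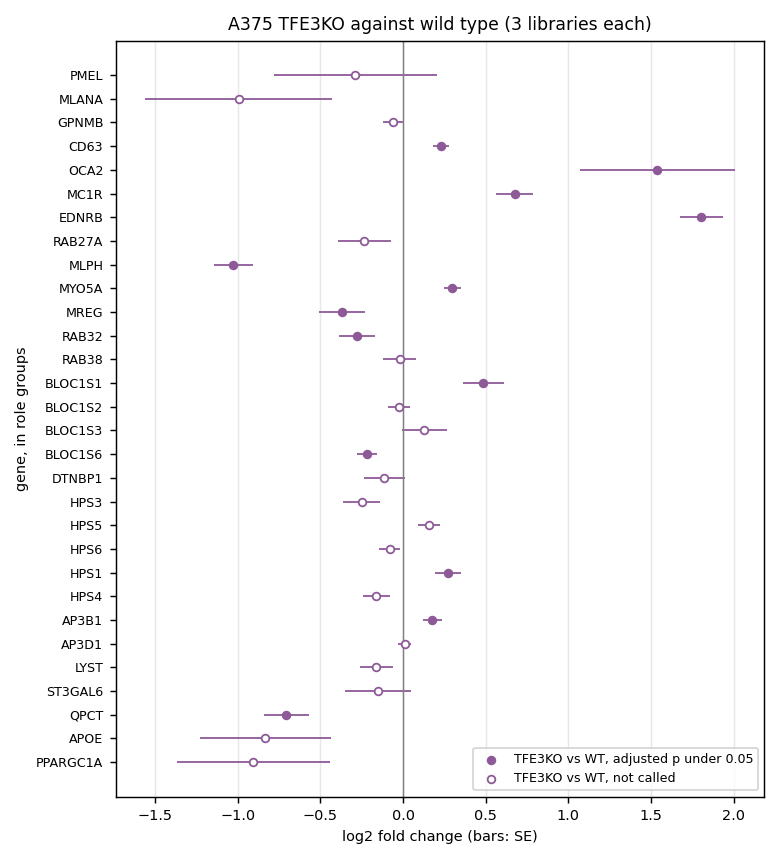
Log2 fold change of the 30 tested genes in A375 TFE3KO against A375 wild type (3 libraries each), with SE bars. Filled points are called at an adjusted p under 0.05. EDNRB lies at 1.81 and OCA2, with a wide bar, at 1.54, while MLPH lies at -1.03.

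Whether TFE3 editing acted differently in both lines was tested directly, as the mean DKO effect in SKMEL28 minus the effect in A375. Of 37 genes tested, 4 differed upward and 8 downward, where 18.5% of all 15093 genes differed upward and 19.3% downward. OCA2 differed by -2.43 ± 0.417 (adjusted p = 3.12e-05), since it fell in both DKO clones and rose in A375. EDNRB rose in both lines, but its rise was smaller in SKMEL28 by 1.38 (log2 difference -1.38 ± 0.137, adjusted p = 1.18e-08), where the median over chromosome 13 was -0.31. QPCT fell in both lines, and the mean fall of the DKO clones was the larger (-0.85 ± 0.147, adjusted p = 3.71e-05). The clones were unlike, with -0.81 in clone 3 and -2.32 in clone 13 beside -0.71 in A375. The difference for QPCT thus lay mostly in clone 13 and is not shown for the line. GPNMB rose in both DKO clones and was not called in A375, and the difference was 0.67 ± 0.0999 (adjusted p = 1.63e-05). For MLPH the difference of 0.70 ± 0.17 (adjusted p = 0.00151) stood between a mean of clones that moved in opposite directions and a fall in A375. The differences for PMEL (0.44 ± 0.641, adjusted p = 0.651) and MLANA (0.12 ± 0.677, adjusted p = 0.939) did not pass the test. TYR, with no count in A375, and DCT, with 3 counts in 1 A375 library, gave no usable estimate. The fitted DCT difference was not called (adjusted p = 0.127), but was called without TFE3KO replicate 1 (adjusted p = 0.0456). The SKMEL28 controls were edited for MITF and the A375 controls were not, so the line and the MITF edit cannot be told apart.

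Other genes of melanosome sorting, transport and ion balance, 40 in all and none among the 38, moved in both directions. In MITFKO against wild type 8 rose and 12 fell of 36 tested, where 25.2% of all genes rose and 23.4% fell, with a median of -0.04. RGS1, a regulator of G-protein signalling, fell from 58 counts in the wild-type library to 3 over the MITFKO libraries, a ratio of 47.5 with a 95% counting interval of 15.5 to 237 (adjusted p = 0.00105). RAB17, a GTPase of melanosome release, fell by 1.49 (adjusted p = 2.96e-06). SLC7A11, the cystine transporter that supplies pheomelanin synthesis, rose by 2.12 (adjusted p = 5.17e-06). In clone 3, 12 rose and 7 fell of the 36, where 18.2% of all genes rose and 17.6% fell. In clone 13, 8 rose and 6 fell, where 20.5% of all genes rose and 20.2% fell. In A375 TFE3KO 6 rose and 6 fell of 35 tested, where 21.3% of all genes rose and 22% fell. SLC7A11 fell in clone 3 (-0.85, adjusted p = 0.000272) and clone 13 (-1.61, adjusted p = 2.23e-06) and rose in A375 TFE3KO (1.11, adjusted p = 3.51e-24). ATP7A, the copper pump that loads tyrosinase, rose in both clones by 0.73 and 1.04 (adjusted p = 7.43e-05 and 5.96e-07). RGS1, RAB17, SLC7A11 and ATP7A are single genes among the 40 and do not stand for the list.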

How the data were processed

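Raw read counts per gene were deposited, 1 table per library. The submitters' processing notes name STAR, featureCounts, DESeq2 and hg19, without versions. Annotation, strand setting and the treatment of multiply mapped reads are not given in the sources consulted. Genes with low counts were removed by edgeR 4.0.16 (filterByExpr by group, R 4.3.3). After TMM scaling, the robust quasi-likelihood F-test was applied, with Benjamini-Hochberg adjustment across every gene of the comparison. Models held 10 libraries for SKMEL28, 6 for A375, 15 for the difference between lines and 16 for the comparison of wild types. The spread of the single SKMEL28 wild-type library was taken from the other groups. CPM used TMM factors over all 16 libraries. Folds against 1 to 3 counts are ratios with a 95% counting interval, and folds against 0 use a floor of 3 counts over the group. Since no molecular identifiers are stated, both cover counting error only. Exon lengths came from a GRCh38 annotation (GENCODE). The fit was tested on simulated data. The members and lists were chosen with earlier results of these data known. All 38 members were named. The rule for fold changes covered called members and always TYR, TYRP1, DCT, PMEL and MLANA; in comparisons with many calls the rest are given as counts. Alternatives were DESeq2 1.42.0, other scaling, no filter, a replicate block and leaving out libraries.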

Additional observations from a re-analysis of the deposited data

Results flagged for a closer look

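For 12 of the 37 genes tested, the mean change of both DKO clones differed from the change in A375 TFE3KO in the test of the difference itself. It was the quasi-likelihood test of edgeR in a joint model of 15 libraries, Benjamini-Hochberg adjusted. Of the 37 genes, 10.8% were called higher and 21.6% lower, where 18.5% of all genes were called higher and 19.3% lower. The count of 12 thus does not set these genes apart from genes at large. The log2 difference, SKMEL28 minus A375, was -2.43 for OCA2, -1.38 for EDNRB, -0.85 for QPCT, -0.54 for MC1R, -0.45 for HPS3, -0.41 for MYO5A, -0.37 for HPS1 and -0.20 for AP3D1 (-0.195). It was 0.70 for MLPH, 0.67 for GPNMB, 0.46 for HPS6 (0.455) and 0.32 for RAB32. The RAB32 call did not hold without the low-count filter (adjusted p = 0.0744), nor without MITFKO replicate 1, clone 3 replicate 1 or 2, clone 13 replicate 1, A375 wild-type replicate 1 or A375 TFE3KO replicate 2 or 3 (adjusted p from 0.0527 to 0.153). The AP3D1 call did not hold without A375 wild-type replicate 2 (adjusted p = 0.0626).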

How the results depend on the processing

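Over the alternatives, 1977 of 2056 values kept their direction and their side of the threshold, 60 lost a call, 8 gained one and 11 changed sign. Scaling by relative log expression and fits of only the 6 libraries compared changed no call. Counts of called members moved by more than 1.5 times in 2 comparisons: falls in A375 TFE3KO were 3 with DESeq2 against 5 (3 to 6 with 1 library left out), and rises in clone 13 were 6 without MITFKO replicate 3 against 10 (6 to 10). The values that changed sign were not called in the test as reported. With 1 library left out, clone 3 against MITFKO ranged from -0.056 to 0.1 for PMEL (-0.058 without both DKO replicate 2 libraries, a setting chosen after seeing the data) and from -0.114 to 0.241 for MLANA. Clone 13 against clone 3 ranged from -0.008 to 0.112 for DCT and from -2.48 to 0 for TYRP1. A375 TFE3KO ranged from -0.987 to 0.052 for PMEL, and the MLANA difference between lines from -0.938 to 0.497; with the replicate block the latter was -0.014. Same-numbered libraries of the clones correlated at 0.0817, 0.144 and 0.0267 for replicates 1, 2 and 3. Differently numbered ones ranged from -0.106 to 0.0368, so replicates 1 and 2 lay above that range. No same-numbered pair with MITFKO or within A375 passed 0.1. The tests as reported did not take the numbers as pairs. Of 99 results with the block, 97 were kept, 1 changed sign and PMEL between the clones gained a call (0.356, adjusted p = 0.00375). No block could be fitted for comparisons with the lone SKMEL28 wild-type library, which also could not be left out. The cause of these shifts was not tested. Depth limits TYRP1, TRPM1, MLANA, OCA2 and PPARGC1A, which had few counts in 1 group or more.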

Other observations

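Regulators of the pigment program were counted from a list of 16 genes. In MITFKO against wild type 3 rose and 3 fell of 12 tested, where 25.2% of all genes rose and 23.4% fell. IRF4, a factor that acts with MITF on TYR, was at 119 CPM in wild type and at 33.4, 30.5 and 31.2 in MITFKO, and fell by 1.91 (edgeR, adjusted p = 7.1e-12). SOX10, which activates MITF, rose by 0.29 (adjusted p = 0.00334). In clone 3, 4 rose and 5 fell of 12 tested, where 18.2% of all genes rose and 17.6% fell. In clone 13, 3 rose and 4 fell, where 20.5% of all genes rose and 20.2% fell. In A375 TFE3KO, 4 rose and 5 fell of 12 tested, where 21.3% of all genes rose and 22% fell. MITF mRNA rose in both DKO clones, which carry the MITF edit, by 0.65 and 0.81 (adjusted p = 3.67e-08 and 9.77e-10). It fell by 0.94 in A375 TFE3KO (adjusted p = 3.94e-13). SOX9, which is often high where SOX10 is low, fell by 2.42 in A375 TFE3KO (adjusted p = 9.81e-15), and SOX10 rose there by 0.65 (adjusted p = 9.15e-24). IRF4, SOX10, MITF and SOX9 are single genes of the list and do not stand for it.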
